A study of Mus musculus with 18 samples.

Results

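Lungs of irradiated C3H/HeJ mice were compared directly with lungs of irradiated A/J mice, both taken when the animals had become moribund. The 3 arrays titled as sick C3H animals were set against the 3 titled as sick A/J animals, which makes 6 of the 18 arrays of the study, and the 6 untreated arrays of these strains were read beside them. All irradiated mice had received 18 Gy of gamma rays from a caesium source over the whole thorax at 8 weeks of age, behind a lead shield that left 3% of the beam elsewhere. They were sacrificed on losing more than 20% of body weight with signs of distress, and the right lung gave the RNA. Irradiated A/J mice were then 30 to 32 weeks old, 22 to 24 weeks after exposure, and irradiated C3H/HeJ mice were 20 to 22 weeks old, 12 to 14 weeks after exposure. Untreated mice of both strains were 15 to 26 weeks old. Strain, age and time since exposure therefore cannot be told apart in the irradiated comparison.

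A/J and C3H/HeJ are inbred strains known for pneumonitis, an inflammation of the air sacs, after thoracic irradiation. In such lungs dying epithelial and endothelial cells are replaced, monocytes and neutrophils enter from the blood, and fibroblasts lay down matrix. Cytokines such as interleukin-6 act through the transcription factor STAT3 and induce acute-phase proteins, which bind microbial products and damaged cells. C3H/HeJ is also known for a mutation in Tlr4, the receptor for bacterial endotoxin, that blunts its response, and A/J for a mutation in Dysf, the gene of the membrane repair protein dysferlin.

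The unit below is the log2 of the deposited signal plus 7, quantile-normalized over all arrays. Differences are C3H/HeJ minus A/J on that scale, with the standard error (±) of a limma fit of 6 groups of 3 arrays in which the 6 C57BL/6J arrays of the study share the spread, and a gene is called where its Benjamini-Hochberg adjusted p over 12405 genes is below 0.05. All tests are two-sided. Brightness before scaling differed between arrays, with a trimmed mean signal from 46.5 to 176. Without scaling the median difference of all genes between the irradiated groups was −0.30, and after centring each array on its median it was −0.16, against −0.04 here. Values below are relative to that shift. The added 7 sets a floor on this scale. Differences and folds are less certain where a group reads near it, as in Lefty1, Bst1, Dysf, H2-Ea, Cxcl5, Cxcr2, Ccl24 and Tlr1 below. Lung genes stood high in every array, with Sftpc, Scgb1a1 and Ager of surfactant-producing, club and flat alveolar cells at or above percentile 99.9 of all genes and the endothelial gene Pecam1 at or above percentile 92.2.

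Arrays stood apart in both irradiated groups. At 34 probe sets that differed by at least 3 log2 units between the untreated strains, 0 marks the A/J mean and 1 the C3H/HeJ mean. Irradiated C3H/HeJ arrays 1 and 2 lay at 0.97 and 0.96, and the array labelled C3H/HeJ 3 lay at 0.52. On the linear scale that array was at 0.58 for the 16 probe sets high in C3H/HeJ and at 0.49 for the 18 high in A/J, while irradiated A/J arrays lay at −0.01 to 0.02 and at 0.12 to 0.27. Counts are therefore given with and without it, and so is the value of each gene described below whose difference it moved by 0.3 or more. RNA that is less intact gives less signal at the 5' end of a transcript than at its 3' end. For actin the 5' signal divided by the 3' signal was 0.413, 0.551 and 0.528 in irradiated A/J lung and 0.716, 0.764 and 0.754 in irradiated C3H/HeJ lung. For Gapdh this ratio was 0.294, 0.876 and 1.03 against 1.18, 1.13 and 1.17. Neither ratio overlapped between the groups, and their part in the results was not tested. A/J array 3 was also high in genes of squamous linings, with a mean of 7.39 over the 14 measured genes of that list against 4.79 to 5.30 in the other 5 irradiated arrays, and in skeletal muscle genes, with 8.08 against 4.80 to 6.19. A/J array 1 has the lowest ratios, and counts without A/J arrays 1 and 3 are given where they bear on a group.

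**Figure D1:**
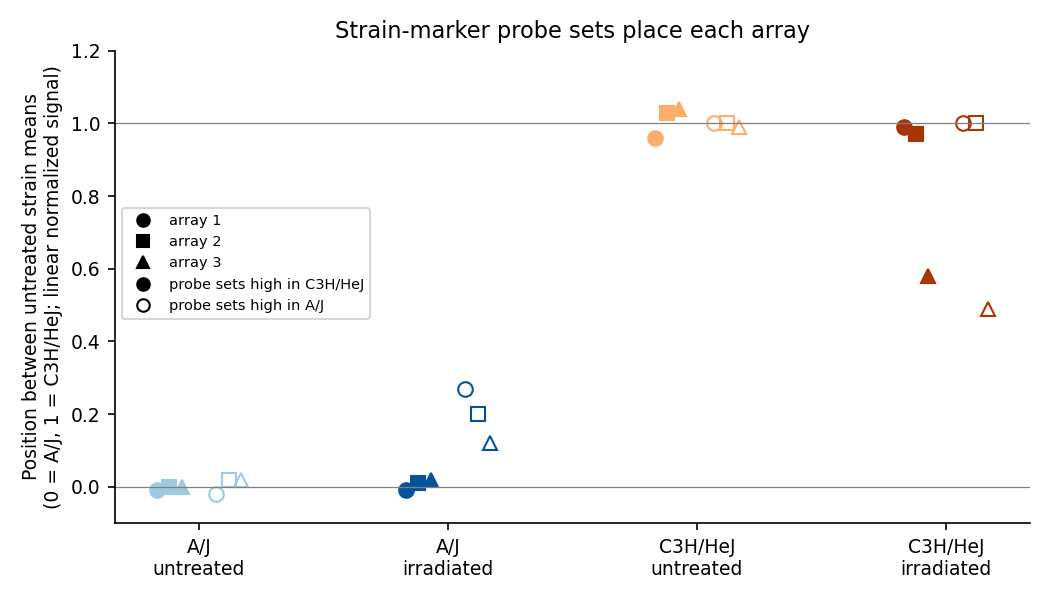
Position of each of 12 arrays between the untreated strain means on the linear normalized signal, from the 16 probe sets high in C3H/HeJ (filled) and the 18 high in A/J (open). The probe sets were chosen on the untreated arrays, which lie near 0 and 1 for that reason, and the third irradiated C3H/HeJ array lies at 0.58 and 0.49.

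More genes were called between the strains in irradiated than in untreated lung. In irradiated lung 1396 genes were called (11.3% of those tested), 544 higher (4.39%) and 852 lower (6.87%) in C3H/HeJ. In untreated lung 557 were called (4.49%), 290 higher (2.34%) and 267 lower (2.15%). Of the irradiated calls, 114 were higher and 115 lower in both states, 423 were higher and 730 lower without a call in untreated lung, and 14 had the opposite sign there. Whether a gene's strain difference itself changed with irradiation was tested as a difference of the 2 strain differences. That test called 131 genes (1.06%), 69 with a higher value in irradiated lung (0.556%) and 62 with a lower one (0.5%). Among the irradiated calls 519 higher and 827 lower genes had arrays that did not overlap, which 11.6% and 17.8% of all genes also met.

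The counts moved with single arrays. Without the array labelled C3H/HeJ 3 the irradiated count was 1524 (12.3%), 586 higher (4.72%) and 938 lower (7.56%), of which 464 and 734 were also called the same way with it. It was 563 without C3H/HeJ array 1, 469 without C3H/HeJ array 2, 884 without A/J array 1, 980 without A/J array 2 and 1441 without A/J array 3. The difference of differences gave 198 genes (1.6%) without C3H/HeJ array 3 and 55 and 33 without C3H/HeJ arrays 1 and 2. It gave 61, 38 and 68 without untreated A/J arrays 1, 2 and 3, and 50 and 72 without untreated C3H/HeJ arrays 1 and 2. In untreated lung the 557 calls became 365, 339 and 368 without untreated A/J arrays 1, 2 and 3 and 326 without untreated C3H/HeJ array 1. Scaling moved the split of irradiated calls, which became 89 higher and 305 lower on unscaled values and 387 higher and 1171 lower on median-centred ones. Other choices turned it, with 950 higher and 688 lower where the probe set of largest variance stood for each gene and 129 higher and 60 lower in a fit of the 6 irradiated arrays alone.

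**Figure D2:**
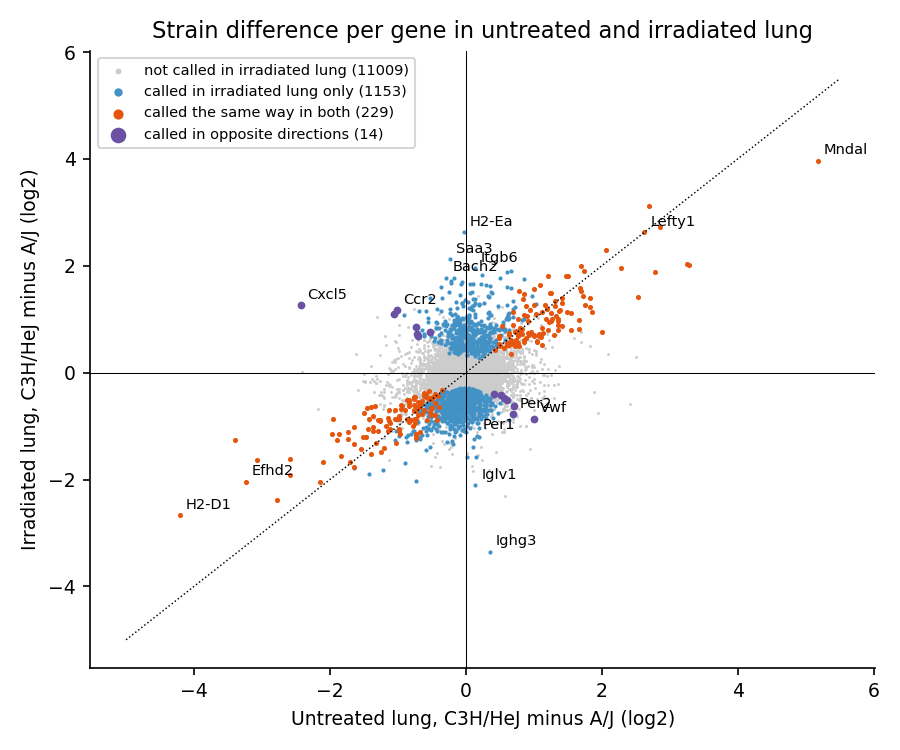
Strain difference of each of 12405 genes in untreated lung (horizontal) and irradiated lung (vertical), both as C3H/HeJ minus A/J in log2 units, with the dotted line marking equal differences. Blue marks the 1153 genes called in irradiated lung alone, orange the 229 called the same way in both states and purple the 14 called in opposite directions, and H2-Ea, Saa3, Itgb6 and Ighg3 lie far from 0 in irradiated lung and near 0 in untreated lung.

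Several large strain differences were also called in untreated lung. Mndal, an interferon-inducible member of the HIN-200 family, read 5.43, 5.21 and 4.55 in the irradiated A/J arrays and 9.03, 9.40 and 8.66 in the C3H/HeJ arrays. The groups did not overlap, and the difference was 3.97 ± 0.22 (15.6-fold, limma adjusted p = 1.02e-07) against 5.18 ± 0.22 in untreated lung. Lefty1, an inhibitor of nodal signalling, read 3.30, 3.24 and 3.19 against 5.94, 6.31 and 5.36. Its difference of 2.63 ± 0.23 stood beside 2.62 ± 0.23 in untreated lung. Bst1, an ectoenzyme of marrow stroma and myeloid cells, was 3.11 ± 0.33 higher in irradiated and 2.70 ± 0.33 higher in untreated C3H/HeJ lung. Dysf read 4.40, 3.32 and 3.94 in A/J and 6.32, 6.5 and 5.74 in C3H/HeJ, a difference of 2.30 ± 0.26 that was 2.06 ± 0.26 without irradiation. Hbegf, a growth factor that binds the EGF receptor, was 1.80 ± 0.21 higher in irradiated and 1.5 ± 0.21 higher in untreated lung, while its other probe set gave 0.45 in irradiated lung and was not called. The irradiated calls of Mndal, Lefty1, Bst1, Dysf and Hbegf held under every alternative run.

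On the lower side, the array labelled C3H/HeJ 3 lay apart. Efhd2, which encodes a calcium-binding protein, read 10.42, 10.53 and 10.31 in A/J and 7.69, 7.71 and 9.74 in C3H/HeJ. The third C3H/HeJ array was nearer to A/J than to its own group, and the difference was −2.04 ± 0.37 in irradiated lung, −2.72 without that array, and −3.24 in untreated lung. Its other probe set gave −0.10. H2-D1, an MHC class I chain, read 11.13, 11.39 and 11.60 against 7.45, 7.43 and 11.25, so that its groups overlapped. Its difference of −2.67 ± 0.67 (adjusted p = 0.0192) was −3.94 ± 0.22 (7.77e-08) without C3H/HeJ array 3 and lost its call without C3H/HeJ array 1 (0.0998) or array 2 (0.101). Its 7 other probe sets ran from −4.25 to 4.77. For Pdxdc1 likewise, the probe set used differed by −2.38 ± 0.38 (−3.09 without C3H/HeJ array 3) and another by 4.17. Whether bases under the probes differ between the strains was not tested. Adamdec1, a metalloprotease-like gene, differed by −2.05 ± 0.42 in irradiated and −2.14 in untreated lung, and Mtm1, a lipid phosphatase, by −1.76 ± 0.28 and −1.65. The irradiated values were −2.67 and −2.26 without C3H/HeJ array 3, and the other probe sets of Mtm1 gave −1.11 and 0.07.

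Several genes were called in irradiated and not in untreated lung, and their difference of differences was called too. H2-Ea, the alpha chain of the class II molecule I-E, read 3.62, 4.05 and 4.29 in irradiated A/J lung and 7.16, 6.75 and 5.94 in irradiated C3H/HeJ lung. Untreated arrays of both strains lay between 6.75 and 7.57, so that the irradiated A/J arrays were the low ones. The irradiated difference was 2.63 ± 0.30 (6.21-fold, adjusted p = 0.000136), or 2.97 without C3H/HeJ array 3, and the difference of differences 2.66 ± 0.43 (adjusted p = 0.00992). Itgb6, the integrin subunit that activates latent TGF-beta on epithelium, read 6.39, 7.14 and 7 in irradiated A/J lung against 8.87, 9.24 and 8.29 in C3H/HeJ, and 8.58 to 8.93 in untreated lung. Its difference was 1.96 ± 0.24 and its other probe set gave 1.53. Bach2, a repressor known from B and T cells, was 1.78 ± 0.16 higher in irradiated C3H/HeJ lung at the probe set used, while its 2 other probe sets gave 0.24 and −0.31. Glipr2 was 1.72 ± 0.23 higher, with 0.68 at its other probe set. In H2-Ea, Itgb6, Bach2 and Glipr2 the irradiated A/J arrays lay below all other arrays of the strains, and the actin ratio was also lowest in them.

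The call of the difference of differences held for H2-Ea, Bach2 and Glipr2 with any 1 of 12 arrays left out. For Itgb6 it was lost in 3 of these 12 fits, those without irradiated C3H/HeJ array 2, untreated A/J array 1 or untreated C3H/HeJ array 1, with adjusted p up to 0.0558. Rbpjl, a relative of the Notch effector RBPJ, went the other way. It read 6.17, 6.81 and 6.82 in irradiated A/J lung and 4.75, 4.53 and 5.8 in C3H/HeJ lung, a difference of −1.57 ± 0.26 (−1.96 without C3H/HeJ array 3), and its difference of differences of −1.72 lost its call in 10 of the 12 fits, with values from −2.11 to −1.47.

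Genes with opposite calls in the 2 states were led by Cxcl5, a chemokine that attracts neutrophils. In untreated lung it read 5.41, 5.91 and 6.57 in A/J and 3.47, 3.43 and 3.70 in C3H/HeJ, and after irradiation 4.02, 4.23 and 3.78 in A/J and 5.12, 5.60 and 5.13 in C3H/HeJ. The order of the strains was thus turned, with differences of −2.43 and 1.27 ± 0.25, and the difference of differences was 3.70 ± 0.35 (adjusted p = 0.000124). The lower strain in each state read near the floor of the scale. Ccr2, the receptor that brings monocytes out of the marrow, read 7.56, 8.20 and 8.23 in irradiated A/J and 8.57, 9.52 and 9.40 in irradiated C3H/HeJ lung. It was 1.17 ± 0.27 higher there and 1.02 lower in untreated lung, and the irradiated call was lost without A/J array 1 (adjusted p = 0.0576) or C3H/HeJ array 2 (0.0717). Its 3 other probe sets gave 1.34, −0.13 and 0.15. Junb, a subunit of the AP-1 factor, was 0.86 ± 0.18 higher in irradiated and 0.73 lower in untreated C3H/HeJ lung, with the irradiated call lost without C3H/HeJ array 2 (adjusted p = 0.0519). Clec4e, the macrophage receptor Mincle, was 1.09 ± 0.29 higher and 1.06 lower, and its irradiated call was lost without A/J array 2 (adjusted p = 0.0931), C3H/HeJ array 2 (0.12) or C3H/HeJ array 3 (0.0588). Its other probe set gave 0.87 in irradiated lung and was not called.

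**Figure D3:**
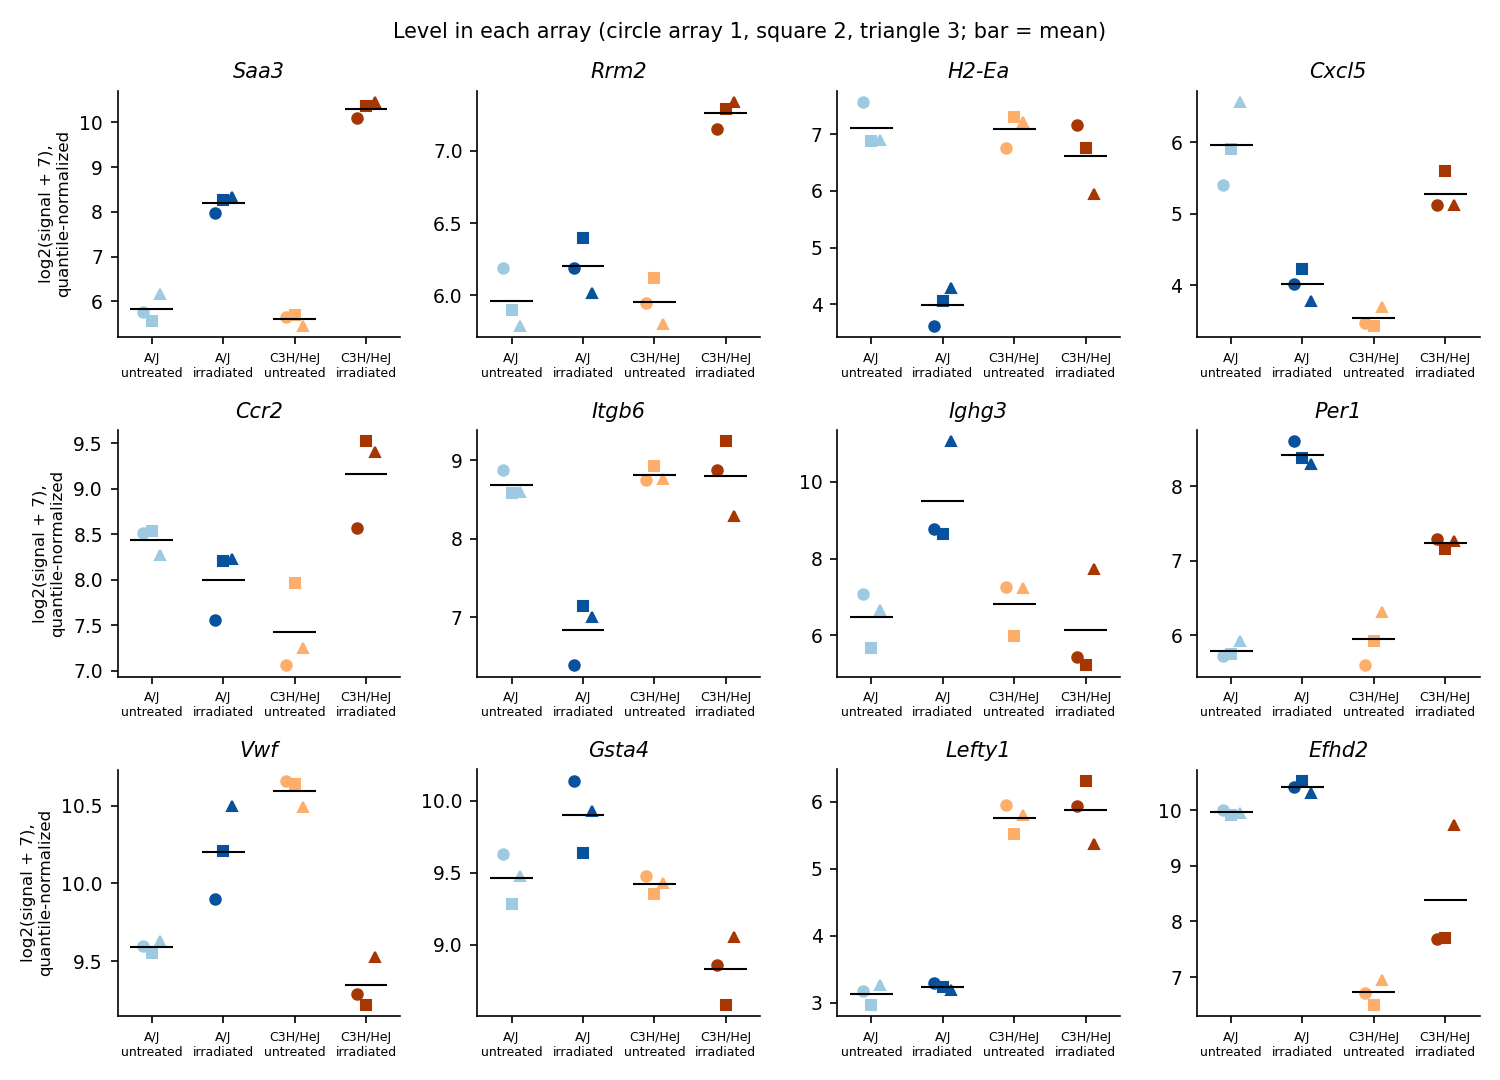
Level of 12 genes in each array of the 4 groups, as quantile-normalized log2(signal + 7), with bars at the group means and 1 symbol shape for each array number, which does not pair arrays. Saa3 is 10.09 to 10.46 in irradiated C3H/HeJ arrays against 7.97 to 8.32 in irradiated A/J arrays, H2-Ea and Itgb6 are low in irradiated A/J arrays, and Efhd2 shows the third irradiated C3H/HeJ array at 9.74 beside 7.69 and 7.71.

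Acute-phase genes were higher in irradiated C3H/HeJ lung. Of 12 measured genes of the list 6 were called higher and 0 lower, against 4.39% and 6.87% of all genes. The list median was 0.65 against −0.04 over all genes. The counts were the same without C3H/HeJ array 3 and without A/J array 3. The higher count was 5 after median centring and 2 without scaling. The difference of differences called 1 gene of the list higher and 0 lower, against 0.556% and 0.5% of all genes. Saa3, a serum amyloid A protein made in inflamed tissue, read 7.97, 8.27 and 8.32 in irradiated A/J lung and 10.09, 10.36 and 10.46 in irradiated C3H/HeJ lung. Untreated arrays of both strains read 5.45 to 6.16. Irradiated arrays of both strains thus lay above every untreated array, with the C3H/HeJ arrays highest. The strain difference was 2.12 ± 0.33 (4.35-fold, adjusted p = 0.00138), and 2.04 ± 0.38 without C3H/HeJ array 3. Its difference of differences of 2.35 ± 0.47 (adjusted p = 0.0292) lost its call in 9 of 12 fits with 1 array left out, with values from 2.19 to 2.48 and adjusted p up to 0.0706.

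Ptx3, the long pentraxin, read 5.10, 4.71 and 4.78 against 5.88, 6.09 and 6.77 and differed by 1.38 ± 0.24. The call held under every alternative run in which the gene was measured. A filter asking for 6 arrays above the median in place of 3 left the gene out. Lbp, which carries endotoxin to its receptor, read 7.89, 8.74 and 8.58 against 9.47, 9.47 and 9.15. It was 0.96 ± 0.19 higher in irradiated and 0.91 higher in untreated C3H/HeJ lung. Lcn2, an iron-withholding protein, was 0.85 ± 0.24 higher (adjusted p = 0.0304), and its call was lost without A/J array 1 or 2 or C3H/HeJ array 1 or 2. The acute-phase count without 1 irradiated array was lowest, at 4, without A/J array 1 or 2 or C3H/HeJ array 1 or 2. Among 15 measured genes of interleukin-6 signalling 3 were higher and 0 lower (20% and 0%, against 4.39% and 6.87% of all genes), with a median of 0.31. The higher count was 1 without C3H/HeJ array 1 or array 2 and after median centring, and 0 without scaling. Socs3, the feedback inhibitor of STAT3, read 8.78, 8.36 and 8.43 against 9.45, 9.25 and 9.09, a difference of 0.74 ± 0.19. Its 2 other probe sets gave 0.45 and 0.30 and were not called. Stat3 differed by 0.63 ± 0.13 at the probe set used and by 0.24, 0.20 and −0.29 at 3 others. The Socs3 call was lost when any 1 of A/J arrays 2 and 3 and C3H/HeJ arrays 1 and 2 was left out. Il6 itself read 7.72, 5.95 and 5.75 against 7.48, 7.84 and 7.68. A/J array 1 lay inside the C3H/HeJ range, and the difference of 1.19 ± 0.41 was not called (adjusted p = 0.074). Without A/J array 1 it was 1.81 and called (adjusted p = 0.00448).

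The region just upstream of Saa3 is shown because this gene led its list and C/EBP factors, which act with STAT3 in the acute phase, are known to bind such promoters. It covers the 250 bases before the start site in RefSeq on GRCm38.p6, chr7:46715677-46715926, minus strand, written in the direction of transcription. Capitals mark the letters TTNNGNAA, searched on both strands, of which it holds 4 matches. Of 32851 promoters of this length 36.8% hold at least 1.
Saa3: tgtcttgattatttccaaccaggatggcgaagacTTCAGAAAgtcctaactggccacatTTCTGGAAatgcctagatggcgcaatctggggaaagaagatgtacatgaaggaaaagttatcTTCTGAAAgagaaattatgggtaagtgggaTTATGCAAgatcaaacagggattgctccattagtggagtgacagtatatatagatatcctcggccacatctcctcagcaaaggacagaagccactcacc

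**Figure D4:**
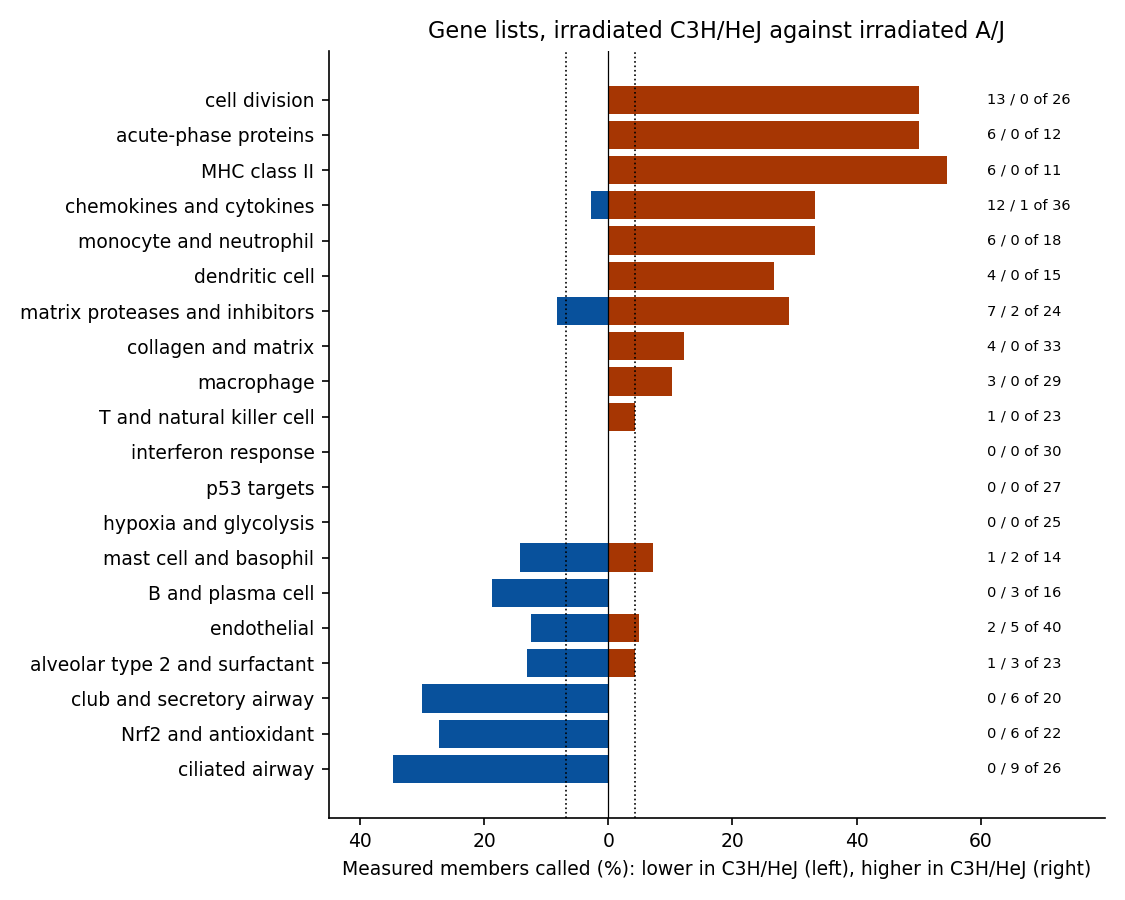
Percentage of measured members of 20 gene lists called higher (right, red) or lower (left, blue) in irradiated C3H/HeJ lung than in irradiated A/J lung, with the counts at the right edge and dotted lines at the shares over all genes tested (4.39% higher and 6.87% lower). Cell division, acute-phase and MHC class II lists have 6 to 13 members called higher and 0 lower, and the ciliated, club and Nrf2 lists 6 to 9 lower and 0 higher.

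Chemokine and myeloid genes were higher in irradiated C3H/HeJ lung as well. Of 36 measured chemokine and cytokine genes 12 were called higher and 1 lower, against 4.39% and 6.87% of all genes, with a median of 0.62 in irradiated and −0.10 in untreated lung. The difference of differences called 2 higher and 0 lower, against 0.556% and 0.5% of all genes, and 1 and 0 without C3H/HeJ array 3. Ccl7, a monocyte attractant, read 5.22, 3.86 and 5.44 in A/J and 6.39, 6.36 and 6.28 in C3H/HeJ, and differed by 1.5 ± 0.32 (2.83-fold, adjusted p = 0.00886). Ccl24, an eotaxin that attracts eosinophils, read 4.47, 3.96 and 4.45 against 5.45, 6.33 and 6.44. Its difference was 1.78 ± 0.38, and the call was lost without C3H/HeJ array 2 (adjusted p = 0.0507). Ccl17, a ligand of the T cell receptor CCR4 that dendritic cells make, read 6.07, 6.11 and 5.8 against 7.85, 8.05 and 7.09, with a difference of 1.67 ± 0.39 that lost its call without C3H/HeJ array 1 (0.0572) or array 2 (0.0682). Ccl22, its partner ligand, was 1.49 ± 0.44 higher (adjusted p = 0.04) and lost its call in 5 of the 6 fits without 1 irradiated array, the exception being A/J array 1. Ccl2, the main CCR2 ligand, read 6.51, 6.18 and 6.25 against 6.95, 7.53 and 7.21. Its groups did not overlap, and the difference of 0.92 ± 0.44 was not called (adjusted p = 0.198).

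Il33, an alarmin released by damaged alveolar epithelium, read 7.93, 8.11 and 8.07 in A/J and 8.94, 8.73 and 8.77 in C3H/HeJ, a difference of 0.78 ± 0.15. Among 18 measured monocyte and neutrophil genes 6 were higher and 0 lower, against 4.39% and 6.87% of all genes, with a median of 0.76 in irradiated and −0.38 in untreated lung. The called ones were Ccr2, S100a8, Cxcr2, Lcn2, Il1r2 and Clec4e. The difference of differences called 2 genes of the list higher and 0 lower, with and without C3H/HeJ array 3. Cxcr2, the neutrophil receptor for CXCL5, differed by 1.15 ± 0.31 (adjusted p = 0.0271) and lost its call in each fit without 1 irradiated array save the one without A/J array 2. Il1r2, a decoy receptor for interleukin-1, differed by 1.07 ± 0.28 (0.0244) and lost its call without A/J array 2 or 3 or C3H/HeJ array 2 or 3. The monocyte and neutrophil count was 3 without C3H/HeJ array 3, C3H/HeJ array 1 or A/J array 2 and 0 without C3H/HeJ array 2, and without C3H/HeJ array 3 and A/J arrays 1 and 3 together it was 1. The chemokine count was 7 without C3H/HeJ array 3 and 4 without C3H/HeJ array 2. Without scaling 6 chemokine genes and 2 monocyte and neutrophil genes were higher, and after median centring 11 and 4. In whole lung more cells of a type and more RNA per cell cannot be told apart, here and for the other cell types below.

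Of 29 measured macrophage genes 3 were higher and 0 lower, which is 10.3% against 4.39% over all genes, and the list median was 0.26. The count was 1 without A/J array 2 or C3H/HeJ array 2 and 0 without C3H/HeJ array 1. It was 1 without scaling and 0 after median centring. Cd14, the endotoxin co-receptor, differed by 0.63 ± 0.15, Cd36, a lipid scavenger receptor, by 0.44 ± 0.11 and Car4 by 1.21 ± 0.33. Car4, which alveolar capillaries also express, read 10.02, 8.53 and 8.14 against 10.37, 10.18 and 9.78, with A/J array 1 inside the C3H/HeJ range. Its call was lost without A/J array 2 or 3 or C3H/HeJ array 1 or 2, that of Cd14 without C3H/HeJ array 1, and that of Cd36 without A/J array 2 or C3H/HeJ array 1 or 2. Another probe set of Cd36 gave −0.03. In the complement list 2 of 15 genes were higher (13.3%, against 4.39% of all genes), C1qa (1.69 ± 0.48) and Cfb (0.77 ± 0.23). Both lost their calls in each fit without 1 irradiated array save the one without A/J array 3, where the count was 4. C1qa read 7.07, 9 and 9.93 in A/J, so that A/J array 1 lay far below the others.

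Cell division genes were higher in irradiated C3H/HeJ than in irradiated A/J lung. Of 26 measured genes 13 were called higher and 0 lower, 25 had a positive difference, and the median was 0.59 in irradiated and −0.07 in untreated lung. Over all genes 4.39% were called higher. The difference of differences called 1 gene of the list higher and 0 lower, against 0.556% and 0.5% of all genes. Its list median was 0.63, and without C3H/HeJ array 3 it called 0 in either direction. The list mean was 6.12, 6.21 and 6.17 in irradiated A/J arrays and 6.74, 6.69 and 6.68 in irradiated C3H/HeJ arrays, with 5.77 to 6.04 in untreated ones. Rrm2, a subunit of ribonucleotide reductase, which makes the building blocks of DNA, read 6.19, 6.40 and 6.02 in A/J and 7.15, 7.29 and 7.34 in C3H/HeJ. The groups did not overlap. The difference was 1.05 ± 0.17 (2.07-fold, adjusted p = 0.00143), its other probe sets gave 0.80 and 0.88, and its difference of differences was 1.05 ± 0.23 (adjusted p = 0.0446), a call lost in 11 of 12 fits with 1 array left out. Ccna2, the cyclin of S phase, read 4.66, 5.53 and 5.30 against 6.19, 6.24 and 6.21, a difference of 1.05 ± 0.20.

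Birc5, which encodes the mitotic protein survivin, differed by 0.92 ± 0.23 and Top2a, the topoisomerase that untangles chromosomes, by 0.90 ± 0.22. Birc5 lost its call without A/J array 1 (adjusted p = 0.0718), C3H/HeJ array 1 (0.0506) or C3H/HeJ array 2 (0.0665), and Top2a without A/J array 1 (0.0541) or C3H/HeJ array 2 (0.0702). Another probe set of Top2a gave 0.14. Mki67, the proliferation antigen, read 6.40, 6.91 and 6.79 against 7.38, 7.63 and 7.58. It differed by 0.83 ± 0.24 (adjusted p = 0.0389) and lost its call with any 1 of the 6 irradiated arrays left out. The count of called members was 10 without C3H/HeJ array 3, 7 without A/J array 1, 4 without C3H/HeJ array 1 or array 2, and 1 without C3H/HeJ array 3 and A/J arrays 1 and 3 together. None was called without scaling, where the list median was 0.45, which is 0.75 above that of all genes.

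The promoters of Rrm2 and Top2a are shown because cell cycle genes are known for CCAAT boxes bound by NF-Y and for the cell cycle homology region TTTGAA. Capitals mark CCAAT and TTTGAA on either strand in the 250 bases before the start site in RefSeq on GRCm38.p6. Of 32851 promoters 33.8% hold CCAAT and 16% hold TTTGAA. The Rrm2 stretch (chr12:24708004-24708253, plus strand) holds 1 CCAAT, and the Top2a stretch (chr11:99024190-99024439, minus strand) holds 6 CCAAT and 2 TTTGAA matches.
Rrm2: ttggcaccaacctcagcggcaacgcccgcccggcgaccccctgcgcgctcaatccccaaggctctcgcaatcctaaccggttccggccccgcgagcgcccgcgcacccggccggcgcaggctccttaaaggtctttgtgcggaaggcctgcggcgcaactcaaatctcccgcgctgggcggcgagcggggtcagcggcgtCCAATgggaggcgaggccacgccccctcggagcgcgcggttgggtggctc
Top2a: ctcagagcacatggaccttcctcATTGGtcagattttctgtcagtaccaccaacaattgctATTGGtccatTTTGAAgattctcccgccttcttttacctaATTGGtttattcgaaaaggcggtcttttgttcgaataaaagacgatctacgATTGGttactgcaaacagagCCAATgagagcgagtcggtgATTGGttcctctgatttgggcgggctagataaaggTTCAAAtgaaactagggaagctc

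MHC class II genes, which present antigen to helper T cells, were higher in irradiated C3H/HeJ than in irradiated A/J lung. Of 11 measured genes 6 were called higher and 0 lower, against 4.39% of all genes, with a median of 0.39 in irradiated and −0.27 in untreated lung. The difference of differences called 2 genes of the list higher and 0 lower, with and without C3H/HeJ array 3. The list mean was 7.54, 7.72 and 7.76 in irradiated A/J arrays, 8.38, 8.25 and 8.21 in irradiated C3H/HeJ arrays, 8.23 to 8.31 in untreated A/J and 7.84 to 8.06 in untreated C3H/HeJ arrays. Irradiated A/J arrays were thus the lowest of the 4 groups. Beside H2-Ea, the beta chain gene H2-Ab1 read 9.55, 9.36 and 9.84 against 10.21, 10.16 and 10.08. It differed by 0.57 ± 0.15, with 1.20 and 1.41 at its other probe sets, and by 0.98 ± 0.21 in the difference of differences (adjusted p = 0.0385), a call lost in 9 of 12 fits with 1 array left out. Ciita, the master regulator of these genes, differed by 0.80 ± 0.20, and H2-DMb2, which edits the bound peptides, by 1.19 ± 0.33. The calls of H2-Ab1 and H2-DMb2 were lost without any 1 of A/J arrays 1 and 2 and C3H/HeJ arrays 1 and 2, that of H2-DMb2 also without A/J array 3, and that of Ciita without A/J array 1 or C3H/HeJ array 1 or 2. The count was 5 without C3H/HeJ array 3, 3 without A/J array 1 or 2, 2 without C3H/HeJ array 1 and 1 without C3H/HeJ array 2. After median centring it was 3, and without scaling it was 1.

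Of 15 measured dendritic cell genes 4 were higher and 0 lower, against 4.39% and 6.87% of all genes. Ccl17 and Ccl22 above were among the 4, and 2 were higher without C3H/HeJ array 1 or array 2. Xcr1, a chemokine receptor of cross-presenting dendritic cells, read 4.71, 4.55 and 4.24 in A/J and 5.72, 5.78 and 5.29 in C3H/HeJ, and differed by 1.10 ± 0.18 (adjusted p = 0.00153). Itgae, the integrin CD103 of dendritic cells and resident T cells, read 6.18, 5.68 and 5.61 against 7.66, 7.92 and 7.34, with 5.16 to 5.88 in untreated lung. The irradiated C3H/HeJ arrays were thus the high ones. Its difference of 1.82 ± 0.23 held under every alternative run, and its difference of differences of 1.58 ± 0.32 (adjusted p = 0.0315) was lost in 8 of 12 fits with 1 array left out. In the list of T and natural killer cells 1 of 23 genes was higher, the T helper 1 regulator Tbx21 (0.87 ± 0.23), a share of 4.35% that is near the background of 4.39%. With C3H/HeJ array 3 left out the count was 3. The Tbx21 call was lost without A/J array 1 or 3 or C3H/HeJ array 2.

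**Figure D5:**
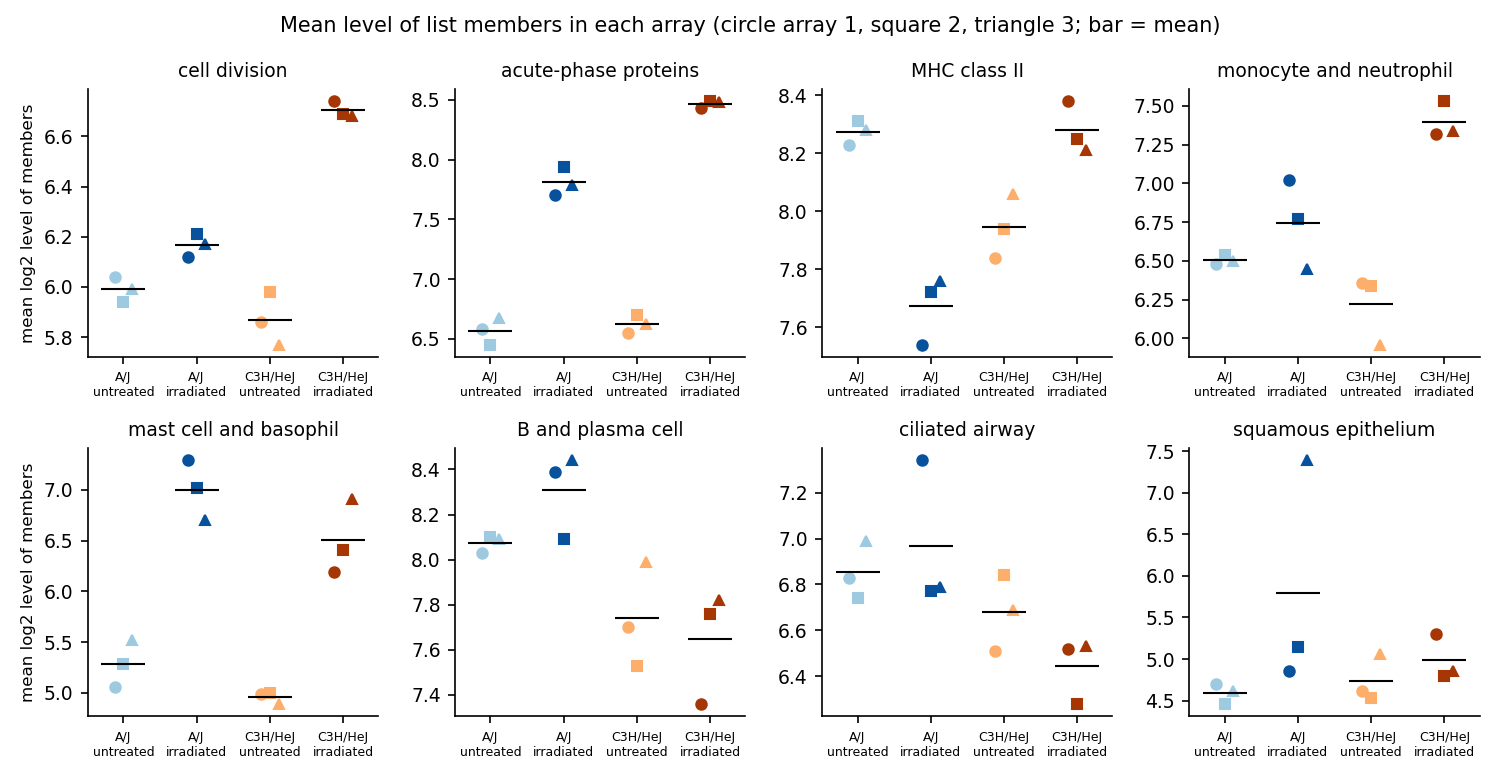
Mean level of the measured members of 8 gene lists in each array of the 4 groups, in quantile-normalized log2 units, with bars at the group means. Cell division and acute-phase means are 6.68 to 6.74 and 8.43 to 8.49 in irradiated C3H/HeJ arrays against 6.12 to 6.21 and 7.70 to 7.94 in irradiated A/J arrays, and the squamous list is at 7.39 in A/J array 3.

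A few collagen and matrix genes were higher in irradiated C3H/HeJ lung. Of 33 measured genes 4 were higher and 0 lower (12.1% against 4.39%), and the median was 0.06. Col1a1, the main chain of fibrillar collagen, read 9.40, 9.36 and 9.24 in A/J and 9.31, 9.52 and 9.21 in C3H/HeJ, and the difference of 0.01 ± 0.23 was not called. The 4 called genes were Vcan, Lum, Fbln1 and Tgfbi. Vcan, the large proteoglycan versican, read 6.28, 4.90 and 4.78 against 6.35, 6.78 and 6.62, a difference of 1.26 ± 0.33 with 1.32 at its other probe set. Lum, a collagen-binding proteoglycan, read 6.21, 6.19 and 6.13 against 7.04, 7.37 and 6.82, a difference of 0.90 ± 0.20. Fbln1 differed by 0.87 ± 0.19, and Tgfbi, a TGF-beta-induced adhesion protein, by 0.68 ± 0.16 after being 0.71 lower in untreated lung. The other probe set of Fbln1 gave 0.36 and was not called, and the 3 others of Tgfbi ran from 0.70 to 0.98. No gene of the list was called without C3H/HeJ array 2. The Vcan call was also lost without A/J array 2 or 3, that of Fbln1 without C3H/HeJ array 1, and that of Tgfbi without A/J array 1.

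Several proteases and their inhibitors were higher in irradiated C3H/HeJ lung. Of 24 measured genes 7 were higher and 2 lower, against 4.39% and 6.87% of all genes. Timp1, the metalloprotease inhibitor, read 8.90, 8.59 and 8.03 in A/J and 9.95, 10.66 and 10.24 in C3H/HeJ, and 5.19 to 6.10 in untreated lung. Both irradiated groups lay above the untreated ones, and the strain difference was 1.77 ± 0.35 (3.42-fold, adjusted p = 0.00603). Mmp3, stromelysin, read 6.92, 7.68 and 7.81 against 8.92, 9.22 and 8.79, a difference of 1.51 ± 0.23 that held under every alternative run. Adamts4, an aggrecanase that also cuts versican, differed by 1.39 ± 0.33 (adjusted p = 0.0141, lost without C3H/HeJ array 2) and Mmp19 by 1.20 ± 0.32 with 1.28 at its other probe set (0.0257, lost without A/J array 1 or 3 or C3H/HeJ array 1 or 2). The counts were again 7 and 2 without C3H/HeJ array 3, 4 and 0 without C3H/HeJ array 1, and 3 and 1 without C3H/HeJ array 2.

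Of 24 measured fibroblast and growth factor genes 5 were higher and 1 lower (20.8% and 4.17%, against 4.39% and 6.87% of all genes). Beside Hbegf, the EGF receptor ligand Ereg read 5.37, 4.60 and 4.44 against 5.69, 6.16 and 6.13 and differed by 1.19 ± 0.28, a call lost without A/J array 2 (adjusted p = 0.0507) or C3H/HeJ array 2 (0.0668). Mfap5, a microfibril protein, was 1.16 ± 0.23 higher in irradiated and 1.37 higher in untreated C3H/HeJ lung. Its other probe set gave 0.57 in irradiated lung and was not called. Igfbp3, a binding protein of insulin-like growth factors, differed by −1.09 ± 0.30 (−1.55 without C3H/HeJ array 3), with C3H/HeJ array 3 at 7.57 beside 6.03 and 6.38 and A/J at 7.55 to 7.97, and its call was lost without A/J array 2 or 3 or C3H/HeJ array 1 or 2. Tgfb1 read 6.42, 7.29 and 7.81 against 7.91, 8.27 and 7.88, a difference of 0.85 ± 0.26 (adjusted p = 0.0472) that was lost in each fit without 1 irradiated array save the one without A/J array 3, and another of its probe sets gave −0.01.

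Mast cell genes showed lower values in irradiated C3H/HeJ lung with few calls. Of 14 measured genes 1 was higher and 2 lower (7.14% and 14.3%, against 4.39% and 6.87% of all genes), and 11 had a negative difference. The median was −0.62 in irradiated and −0.15 in untreated lung. The difference of differences called 0 genes of the list in either direction, and its median was −0.11. Hdc, the enzyme that makes histamine, read 8.99, 8.20 and 8.60 in A/J and 6.88, 7.13 and 7.83 in C3H/HeJ. It was 1.32 ± 0.22 lower in irradiated and 1.32 lower in untreated C3H/HeJ lung. Cma1, a mast cell chymase, read 9, 8.6 and 8.27 against 7.08, 7.37 and 8.08 and differed by −1.11 ± 0.29 (adjusted p = 0.0245). Cpa3, the mast cell carboxypeptidase, read 9.31, 8.88 and 8.51 against 7.16, 7.59 and 8.31. Its groups did not overlap, but the difference of −1.22 ± 0.47 was not called (adjusted p = 0.105), nor was that of −1.53 without C3H/HeJ array 3 (0.0653). In untreated C3H/HeJ lung Cpa3 was 1.21 lower, also not called (adjusted p = 0.178), and its difference of differences was 0 ± 0.66 (0.999). For Cma1 these values were −0.30 (0.647) and −0.81 (0.318). Untreated arrays read 4.78 to 5.77 for Cma1 and 2.98 to 5.69 for Cpa3, below the irradiated arrays of both strains. In both genes the array labelled C3H/HeJ 3 was the one nearest to A/J. Mcpt2, a mucosal mast cell protease, was the higher one (1.65 ± 0.47) and lost its call in 5 of the 6 fits without 1 irradiated array. Cma1 lost its call in 4 of these fits, those without A/J array 1 or 2 or C3H/HeJ array 1 or 2. The counts were 0 higher and 4 lower without C3H/HeJ array 3, and 1 was lower without A/J array 1 or 2 or C3H/HeJ array 1 or 2.

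Ighg3, Iglv1 and Jchain, which encode parts of secreted antibody, were lower in irradiated C3H/HeJ lung. Of 16 measured B and plasma cell genes 0 were higher and 3 lower, against 4.39% and 6.87% of all genes, and 1 was lower without C3H/HeJ array 1 or array 2. The median of −0.31 was close in size to the −0.33 of untreated lung. Ighg3, the constant region of an IgG heavy chain, read 8.77, 8.64 and 11.06 in A/J and 5.45, 5.22 and 7.74 in C3H/HeJ. Within each strain array 3 was the highest. The difference was −3.35 ± 0.72 (10.2-fold lower, adjusted p = 0.00917) and −4.16 without C3H/HeJ array 3, against 0.35 in untreated lung, and its call was lost without C3H/HeJ array 2 (−2.90, adjusted p = 0.0557). The difference of differences was not called with all arrays (adjusted p = 0.0823) and was called without C3H/HeJ array 3 (0.0281). Iglv1, a light chain variable region, read 9.95, 9.11 and 10.16 against 6.56, 8.03 and 8.30, a difference of −2.11 ± 0.46 (−2.44 without C3H/HeJ array 3) whose call was lost without C3H/HeJ array 1 (−1.58, adjusted p = 0.0529), and its other probe set gave −0.95. Jchain, which links secreted antibodies, read 12.08, 11.97 and 12.28 against 9.75, 11.07 and 11.63 and differed by −1.29 ± 0.40 (adjusted p = 0.0493). It lost its call in 5 of the 6 fits without 1 irradiated array, and its difference was −0.76 without C3H/HeJ array 1 and −1.70 without C3H/HeJ array 3.

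Genes of ciliated airway cells were lower in irradiated C3H/HeJ lung. Of 26 measured genes 9 were lower and 0 higher, 25 had a negative difference, and the median was −0.49 in irradiated and −0.11 in untreated lung, against a background of 6.87% called lower. Dynlrb2, a dynein light chain of cilia, read 10.18, 9.67 and 9.41 in A/J and 8.72, 8.33 and 9.03 in C3H/HeJ, a difference of −1.06 ± 0.19 (adjusted p = 0.00351). Dnah9, a dynein heavy chain, read 7.16, 6.60 and 6.77 against 6.05, 5.92 and 6.10 and differed by −0.82 ± 0.16. Ak7, an adenylate kinase of cilia, differed by −0.91 ± 0.20 and Tekt4, a tektin of the axoneme, by −0.96 ± 0.24. The Ak7 call was lost without C3H/HeJ array 2, and that of Tekt4 without A/J array 1 or C3H/HeJ array 1 or 2.

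In the ciliated list itself the difference of differences called 0 of 26 genes in either direction, with and without C3H/HeJ array 3, against 1.06% of all genes. Outside the list, 2 further genes known from motile cilia were named because their difference of differences was called. Dnah12, a dynein heavy chain, read 6.79, 6.42 and 6.31 in irradiated A/J and 5.25, 5.64 and 5.63 in irradiated C3H/HeJ lung, with 5.54 to 5.74 in untreated lung. Bbof1, a basal body protein, read 6.74, 6.69 and 6.65 against 5.55, 5.55 and 5.87, with 5.79 to 6.32 in untreated lung. In both genes the irradiated A/J arrays were the high ones. The irradiated differences were −1 ± 0.15 and −1.03 ± 0.16, and those of the differences −1.01 and −1.23, lost in 9 and 3 of the 12 fits with 1 array left out. The mean of the ciliated list was 7.34 in A/J array 1, the array with the lowest 5' to 3' ratios, against 6.77 and 6.79 in the other A/J arrays and 6.28 to 6.53 in C3H/HeJ. Without A/J array 1 the count was 5 lower, without C3H/HeJ array 3 it was 11, without C3H/HeJ array 1 it was 5, without C3H/HeJ array 2 it was 3, and without C3H/HeJ array 3 and A/J arrays 1 and 3 together it was 1.

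Of 20 measured genes of club and other secretory airway cells 6 were lower and 0 higher, against 6.87% and 4.39% of all genes. The median was −0.32 in irradiated and −0.14 in untreated lung. The difference of differences called 0 genes of the list in either direction. Aldh3a1, an aldehyde dehydrogenase, read 7.54, 6.72 and 8.59 in A/J and 6.33, 6.17 and 6.45 in C3H/HeJ, a difference of −1.30 ± 0.36 in which A/J array 3 was the highest. Bpifb1, a mucosal defence protein, differed by −1.06 ± 0.33 in irradiated and −1.44 in untreated lung, and Scgb3a1, a secretoglobin, by −0.79 ± 0.24. These 3 calls were lost without A/J array 1 or C3H/HeJ array 1 or 2, with that of Aldh3a1 also lost without A/J array 3 and those of Bpifb1 and Scgb3a1 without A/J array 2. The count was 2 without A/J array 1 or C3H/HeJ array 1, 3 without A/J array 2, 1 without C3H/HeJ array 2 and 7 without C3H/HeJ array 3. Cldn3, a tight junction protein of airway and alveolar epithelium, read 10.07, 9.93 and 9.75 against 9.01, 8.62 and 9.12, a difference of −1 ± 0.15 that held under every alternative run, and its 3 other probe sets ran from −0.94 to −0.38. Its difference of differences of −0.92 was lost in 9 of the 12 fits.

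In the alveolus, 3 of 23 type 2 cell and surfactant genes were lower and 1 higher (13% and 4.35%, against 6.87% and 4.39% of all genes). There were 9 lower without C3H/HeJ array 3 and without A/J array 1. Abca3, the lipid pump of surfactant granules, read 10.17, 10.57 and 10.39 against 9.49, 9.39 and 10.01, with a difference of −0.75 ± 0.14 and −0.48 and −0.55 at its other probe sets. Muc1 read 9.17, 9.37 and 9.27 against 8.75, 8.39 and 8.85, a difference of −0.61 ± 0.12. Both kept their calls in each fit without 1 irradiated array. The other lower gene, Dlk1, read 5.26, 5.55 and 5.15 against 4.42, 4.42 and 4.57, with 3.51 to 4.08 in untreated lung. Its difference of −0.85 ± 0.21 (adjusted p = 0.017) lost its call without A/J array 2 or C3H/HeJ array 1 or 2. The higher gene was Il33. Of 18 genes of type 1 cells, which form the gas exchange surface, 2 were higher, Pdpn (0.40 ± 0.10) and Sema3e (0.67 ± 0.14), and 2 lower, Akap5 (−0.42 ± 0.12) and Scnn1b (−0.58 ± 0.17). Each count is 11.1% of the list, against 4.39% higher and 6.87% lower over all genes. The 3 other probe sets of Sema3e ran from 0.07 to 0.28, and the 2 others of Akap5 gave −0.04 and −0.13. Pdpn lost its call without C3H/HeJ array 2. Akap5 lost its call in each fit without 1 irradiated array save the one without C3H/HeJ array 3, and Scnn1b in each save the one without A/J array 3.

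Vwf, the clotting factor that endothelial cells store, had opposite strain differences in the 2 states. It read 9.60, 9.55 and 9.63 in untreated A/J and 10.66, 10.64 and 10.49 in untreated C3H/HeJ lung, against 9.90, 10.21 and 10.50 in irradiated A/J and 9.29, 9.22 and 9.53 in irradiated C3H/HeJ lung. The strain difference was 1 in untreated and −0.86 ± 0.17 in irradiated lung, and the difference of differences of −1.86 ± 0.23 (adjusted p = 0.00152) held with any 1 of 12 arrays left out. Of 40 measured endothelial genes 2 were higher and 5 lower (5% and 12.5%, against 4.39% and 6.87% of all genes), with a list median of −0.10. The counts were 2 and 7 without C3H/HeJ array 3, 1 and 3 without A/J array 2, 1 and 2 without C3H/HeJ array 1, and 0 and 2 without C3H/HeJ array 2. Tek, the angiopoietin receptor, read 7.64, 8.17 and 8.17 against 7.14, 7.11 and 7.67 and differed by −0.69 ± 0.18. Bmp6, an endothelial iron-sensing signal, differed by −0.87 ± 0.19. Procr, the protein C receptor, was 0.96 ± 0.21 higher in irradiated and 1.36 higher in untreated lung, and Car4 above was the other higher gene. The Tek call was lost without A/J array 2 or 3 or C3H/HeJ array 1 or 2, that of Bmp6 without C3H/HeJ array 1 (adjusted p = 0.0555) or 2 (0.0533), and that of Procr without C3H/HeJ array 2.

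Strain differences of clock genes were not the same in the 2 states. Of 19 measured genes 8 were higher and 1 lower in untreated C3H/HeJ lung, 2 were higher and 3 lower in irradiated lung, and the difference of differences called 0 higher and 6 lower. Over all genes the shares higher and lower were 2.34% and 2.15% in untreated lung and 4.39% and 6.87% in irradiated lung. For the difference of differences they were 0.556% and 0.5%. Per1, a repressor of the circadian loop that glucocorticoids also induce, read 5.72, 5.75 and 5.92 in untreated A/J, 5.60, 5.93 and 6.32 in untreated C3H/HeJ, 8.60, 8.37 and 8.29 in irradiated A/J and 7.29, 7.16 and 7.26 in irradiated C3H/HeJ lung. Both irradiated groups were above the untreated ones, with A/J highest. The irradiated difference was −1.18 ± 0.16 (2.27-fold lower, adjusted p = 0.000534) and the difference of differences −1.34 ± 0.22 (0.0127). Per2 read 7.95, 7.69 and 7.66 against 7.01, 6.92 and 7.02. It was 0.78 ± 0.12 lower in irradiated and 0.70 higher in untreated C3H/HeJ lung. Dbp, an output gene of the loop, was 2.41 ± 0.20 higher in untreated C3H/HeJ lung. In irradiated lung it read 8.83, 9.04 and 9.11 against 8.25, 8.42 and 8.55, a difference of −0.59 ± 0.20 that was not called (adjusted p = 0.0741), and its difference of differences was −2.99 ± 0.29 (adjusted p = 0.000124).

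The higher clock genes were Bhlhe41 (0.89 ± 0.23) and Rora (0.79 ± 0.18), whose 7 other probe sets ran from −0.33 to 0.79. Bhlhe41 lost its call without A/J array 1 or C3H/HeJ array 1 or 2, and Rora without C3H/HeJ array 2. The hour of sacrifice is not given in the sources used here, and its part was not tested. Of 20 glucocorticoid-responsive genes 1 was higher and 2 lower (5% and 10%), near the 4.39% and 6.87% of all genes. Klf9, a factor induced by glucocorticoids and thyroid hormone, was 0.93 ± 0.15 lower in irradiated and 0.84 lower in untreated C3H/HeJ lung, with other probe sets from −0.95 to 0.55. Fkbp5, a chaperone of the glucocorticoid receptor, read 8.19, 8.11 and 7.78 against 7.98, 8.40 and 8.07, overlapping, with 0.12 ± 0.22 (adjusted p = 0.783) and 0.72 at its other probe set.

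The Per1 promoter is shown because E-boxes, the sites of the CLOCK and BMAL1 pair, are known to drive it. These are the 250 bases before the first of 2 start sites of the gene in RefSeq on GRCm38.p6, chr11:69098699-69098948, plus strand. Capitals mark the only match to CACGTG, which reads the same on both strands and occurs in 6.02% of promoters of this length.
Per1: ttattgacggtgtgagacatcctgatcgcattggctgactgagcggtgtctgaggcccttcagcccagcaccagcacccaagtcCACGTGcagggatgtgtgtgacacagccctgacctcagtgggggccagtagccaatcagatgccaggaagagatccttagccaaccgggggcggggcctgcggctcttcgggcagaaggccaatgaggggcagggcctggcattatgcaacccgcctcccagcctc

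Of 22 measured Nrf2 and antioxidant genes 6 were lower and 0 higher in irradiated C3H/HeJ lung, against 6.87% and 4.39% of all genes. The list median of −0.08 was near the −0.04 of all genes, and 12 members had a negative difference. The called ones were Gsta2, Gsta4, Gstm1 and Gstp1, which join glutathione to reactive compounds, Gpx3 and Cat. Gsta4, which removes lipid peroxidation products, read 10.14, 9.64 and 9.93 in A/J and 8.86, 8.58 and 9.05 in C3H/HeJ, with 9.28 to 9.63 in untreated lung. A/J lay above and C3H/HeJ below the untreated arrays. The difference was −1.07 ± 0.14 (2.10-fold lower, adjusted p = 0.000481), and its difference of differences of −1.03 was lost in 5 of the 12 fits with 1 array left out. Gstm1 read 10.87, 10.60 and 10.45 against 10.13, 9.83 and 9.85, a difference of −0.70 ± 0.12 with −0.59 to −0.30 at 3 other probe sets, which related family members can share. Gsta2 differed by −0.66 ± 0.12 in irradiated and −0.51 in untreated lung. Cat, catalase, differed by −0.59 ± 0.14 and lost its call without C3H/HeJ array 2 (adjusted p = 0.0682). Its other probe set gave −0.35 and was not called. The counts were 2 higher and 6 lower without C3H/HeJ array 3, and 0 and 3 without C3H/HeJ array 2.

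Srebf1, the regulator of fatty acid synthesis, read 8.39, 8.44 and 8.47 against 7.92, 7.94 and 7.85, a difference of −0.53 ± 0.11. It was 1 of 3 lower genes among 21 of cholesterol and lipid synthesis (14.3%, against 6.87% of all genes), where 0 were higher. The lower count was 1 without A/J array 3 or C3H/HeJ array 1 or 2. In the list of fatty acid handling and prostaglandins 2 of 25 were higher (8%, against 4.39% of all genes). Alox5ap, needed to make leukotrienes, read 8.89, 9.35 and 9.20 against 9.86, 9.84 and 9.76 and differed by 0.68 ± 0.14, and Cd36 was the other. Acoxl, a peroxisomal oxidase relative, read 5.21, 3.81 and 4.08 against 4.91, 4.98 and 4.63 in irradiated lung and 7.96 to 8.28 in untreated lung. Both irradiated groups were low and overlapped, with a difference of 0.47 ± 0.45 that was not called.

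Among 26 measured genes of Toll-like receptor signalling 3 were higher and 1 lower (11.5% and 3.85%, against 4.39% and 6.87% of all genes). Tlr2, the receptor for bacterial lipoproteins, read 7.26, 7.27 and 7.21 in A/J and 8.23, 8.22 and 8.20 in C3H/HeJ, and 6.95 to 7.40 in untreated lung. The irradiated C3H/HeJ arrays stood above all others, and the difference was 0.97 ± 0.16 (1.96-fold, adjusted p = 0.00185). Tlr1, its partner, read 5.81, 6.16 and 6.77 against 3.98, 4.43 and 5.51. It differed by −1.61 ± 0.37 in irradiated and −2.59 in untreated lung, with −2.04 in irradiated lung without C3H/HeJ array 3, and lost its irradiated call without C3H/HeJ array 1 (adjusted p = 0.0744) or 2 (0.0635). Tlr4 read 6.12, 6.91 and 6.92 against 6.65, 6.34 and 6.98, overlapping, with a difference of 0.01 ± 0.21 at the probe set used. Of its other probe sets one gave 0.40 and was not called, and one gave 1.14 ± 0.20 (adjusted p over probe sets = 0.00217). The other higher genes were Cd14 and Lbp.

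Several lists held few or no calls, where 4.39% of all genes were called higher and 6.87% lower. Of 27 p53 targets 0 were called in either direction (2 higher and 2 lower at an unadjusted limma p below 0.05), and Cdkn1a, the p53-induced cell cycle inhibitor, read 10.41, 9.54 and 9.29 against 9.86, 9.89 and 9.61, a difference of 0.04 ± 0.28. The C3H/HeJ arrays lay within the A/J range, and 1 p53 target was higher without A/J array 1. Of 30 interferon response genes 0 were called (2 higher and 1 lower unadjusted), though 3 were higher without A/J array 3 and 1 without A/J array 2, and 5 were lower in untreated C3H/HeJ lung. Of 25 hypoxia and glycolysis genes 0 were called (1 and 1 unadjusted). In the squamous list 0 of 14 were called (0 and 1 unadjusted), and 6 were lower without scaling. Among the 6 irradiated arrays compared, A/J array 3 alone was high. Untreated C57BL/6J arrays 1 and 3, which share the spread of the fit, were also high, with list means of 7.86 and 7.83. In the list of 16 measured MHC class I and antigen processing genes 2 were higher and 3 lower (12.5% and 18.8%), each also called the same way in untreated lung. Of 17 smooth muscle genes 1 was lower (5.88%), of 25 respiratory chain genes 1 was lower (4%), and of 11 adipocyte genes 2 were lower (18.2%). Of 18 cardiac muscle genes 1 was higher and 1 lower (5.56% each). Myh7, a cardiac myosin, was 0.99 ± 0.20 lower in irradiated and 0.78 lower in untreated C3H/HeJ lung. The Y-linked genes Eif2s3y, Uty and Kdm5d were 1, 1.5 and 0.75 higher in irradiated and 0.77, 1.26 and 0.79 higher in untreated C3H/HeJ lung, and the irradiated call of Kdm5d was lost without A/J array 1 or C3H/HeJ array 1 or 2.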

How the data were processed

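Lung total RNA of 18 mouse samples was measured on single-colour arrays. The deposited values are linear signal intensities of 45101 probe sets, made by the authors with MAS5 per the submitters' processing notes, with no version given there. From these intensities log2(signal + 7) was computed and quantile-normalized, where 7 is the rounded 25th percentile of the deposited values. Probe sets above the overall median in at least 3 arrays were kept (25726 without 64 control probe sets). Of all probe sets 34958 named 1 gene in the platform annotation, 932 several and 9211 had no row. The kept probe set with the highest mean stood for a gene.

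A linear model of 6 group means with 12 residual degrees of freedom was fitted with limma version 3.58.1 (R version 4.3.3), with moderated variances. Adjusted p-values, SE and counts come from it. The number of arrays limits precision. The labels do not say whether control samples of a strain came from separate mice, and if they did not, p-values measure partly technical spread. Replicate numbers did not pair arrays.

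Members, lists and rules were chosen with earlier results of these data known. Genes named are the 12 highest and 12 lowest called differences with arrays that do not overlap, the 6 highest and 6 lowest also called in the difference of differences, the 5 highest and 5 lowest called in both states, up to 6 with opposite calls, up to 4 called members of a list, and 14 genes given in any case. Of these 138 genes, those that add a value to a comparison are described. Alternatives changed scaling, pseudocount, filter, probe set choice, arrays in the fit and a replicate block. In data simulated for the irradiated comparison, with 12405 genes, 98 of 99 changes by 2 log2 units and 85 of 101 by 1 were called, with 7 false calls. The simulated noise was independent between genes and equal in spread between groups. It held no array lying apart, no difference in RNA quality and no scaling step, so these figures do not cover such effects. Promoters come from RefSeq on GRCm38.p6. Some genes are not reported here.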

Additional observations from a re-analysis of the deposited data

Results flagged for a closer look

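The strain difference of 131 genes itself differed between irradiated and untreated lung by the limma test of the difference of differences. Among genes named here those with a higher value in irradiated lung were Cxcl5 (3.70), H2-Ea (2.66), Saa3 (2.35), Ccr2 (2.19), Clec4e (2.16), Bach2 (2.07), Glipr2 (1.95), Itgb6 (1.83), Junb (1.59), Itgae (1.58), Tgfbi (1.39), Rrm2 (1.05) and H2-Ab1 (0.98), in log2 units.

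Those with a lower value were Dbp (−2.99), Vwf (−1.86), Rbpjl (−1.72), Per2 (−1.49), Per1 (−1.34), Bbof1 (−1.23), Gsta4 (−1.03), Dnah12 (−1.01), Cldn3 (−0.92) and Gstm1 (−0.76). With any 1 of 12 arrays left out, the calls of Bach2, Cxcl5, Dbp, Glipr2, H2-Ea, Junb, Per1, Per2, Tgfbi and Vwf held, and each of the other 13 was lost in at least 1 fit. The share of these differences that goes with age, time since exposure or the 5' to 3' ratios was not tested.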

How the results depend on the processing

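Of 129 named genes called in irradiated lung 23 kept their call under every alternative run that measured them and 106 lost it under at least 1. A filter asking for 6 arrays above the median in place of 3 measured 117 of the 129 and left out Ptx3, which is 1 of the 23. The irradiated count of 1396 was 394 without scaling and 189 in a fit of the 6 irradiated arrays alone. It ranged from 469 to 1524 with 1 array left out and was 630 without C3H/HeJ array 3 and A/J arrays 1 and 3, an alternative chosen after seeing the data, as was leaving out C3H/HeJ array 3 and A/J array 3 (1501). The replicate block gave 1284 irradiated calls, and same-numbered irradiated arrays correlated at 0.06, −0.04 and 0.08. The untreated count of 557 was 243 without scaling (34 higher, 209 lower) and 353 after median centring (139 and 214), and 326 to 450 with 1 array left out. The count of 131 for the difference of differences was 37 without scaling, 71 after centring, 47 with no filter on dim probe sets, 210 with the probe set of largest variance, 33 to 198 with 1 array left out, 279 without C3H/HeJ array 3 and A/J array 1, and 227 without C3H/HeJ array 3 and A/J array 3.

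With the probe set of largest variance the irradiated differences of Acly (0.05), Cd36 (−0.03), Sdha (0.27), Stat3 (−0.29) and Pdxdc1 (4.17) and the untreated one of Pdxdc1 (4.76) reversed, since other probe sets were read. Some uncalled irradiated differences became called, namely Tlr4 (1.14) with the probe set of largest variance, Cpa3 without scaling (−1.52) or with a pseudocount of 16 (−1.18), Dbp after centring (−0.72), and Il6 with a pseudocount of 16 (1.09) and in each fit without A/J array 1 (1.71 to 1.81). Uncalled differences near 0 changed sign too. Without scaling and after centring Cdkn1a gave −0.20 and −0.06, Col1a1 −0.25 and −0.11, Fkbp5 −0.17 and −0.03, and Tlr4 −0.24 and −0.10. With 1 array left out Cdkn1a ranged from −0.20 to 0.37 (−0.07, −0.02 and 0 among them), Fkbp5 from 0 to 0.20 and Tlr4 from −0.26 to 0.17 (−0.15 among them), and Col1a1 reached −0.08 and −0.04. Without C3H/HeJ array 3 and A/J array 3 Cdkn1a gave −0.11 and Tlr4 −0.02, and Tlr4 gave −0.42 without C3H/HeJ array 3 and A/J array 1 and −0.41 without all 3. The cause was not tested for the other changes.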
